A study of Homo sapiens with 14 samples.

Results

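The step from pancreatic progenitors to β-like cells without an expansion phase was followed in a pair of RNA sequencing libraries, 1 of PP2 cells and 1 of SC-β cells, out of the 14 libraries of the study. PP2 are pancreatic progenitors made from pluripotent stem cells by stepwise differentiation. SC-β are β-like cells, made by taking such progenitors directly through the later steps. The libraries were chosen by their labels, both labels give batch 1, and each group had 1 library, so no difference below has a replicate check, no test was made and no error can be given. Each library listed 60624 gene identifiers, and the 18894 genes with 1 TPM or more in either library were described. TPM, the unit of the values, divides a library among its transcripts after allowing for their lengths, so a level can be compared between genes, but the number of reads behind it is unknown.

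Both libraries came from MEL1, a human embryonic stem cell line, and the methods of the study name it as the form with a GFP reporter at an allele of the insulin gene, so the INS transcript may not come from both alleles. The cells grew as floating aggregates. Before the progenitor stage was reached they had received activin A with CHIR99021, then KGF, at first with a TGFβ inhibitor. The retinoid TTNPB came next, then EGF with KGF. The media that followed held zinc sulfate, heparin, an inhibitor of the TGFβ receptor, the thyroid hormone T3 and vitamin C, with LDN-193189 (a BMP receptor inhibitor), Compound E (a γ-secretase inhibitor, which blocks Notch cleavage) and forskolin at first and N-acetyl cysteine with Trolox later, and no added EGF or KGF. No cell sort is named for these libraries in the labels, so each may hold several cell types.

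In the embryo, pancreatic progenitors carry the transcription factors PDX1, NKX6-1, SOX9 and PTF1A, divide, and are held back from endocrine fate by Notch signalling. A short pulse of NEUROG3 starts the endocrine programme. NEUROD1, INSM1, PAX6, ISL1, NKX2-2 and other factors then follow, the cell leaves the cycle, and it builds dense-core secretory granules loaded with a hormone. Insulin marks β cells, glucagon α cells and somatostatin δ cells, and chromogranin A (CHGA) fills the granules of all of them.

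The 3 genes that mark the change were INS (insulin, ENSG00000254647, chr11:2159779-2161221, GRCh38), GCG (glucagon, ENSG00000115263, chr2:162142882-162152404) and CHGA (ENSG00000100604, chr14:92923150-92935285). INS was listed at 0 TPM in PP2 and reached 20658 TPM in SC-β. GCG went from 0.048 to 74281 TPM and CHGA from 28.1 to 16156 TPM, a ratio of 575. INS and GCG were thus at the bottom of the scale in PP2, while CHGA stood near its level in undifferentiated stem cells (hPSC), 29.9 TPM. The sequences before their start sites are shown because these genes made up much of the SC-β library, and those of UHRF1 and PLK1 because they had the largest downward differences of the DNA replication genes with an E2F site there and of the mitosis genes. Each is the 250 bases 5′ of the start in RefSeq (GRCh38.p14), written 5′ to 3′ on the strand of the gene. Capitals mark matches to short motifs. In INS and GCG they mark the E-box CAGATG or its reverse complement (bound by NEUROD1 with its partners), in CHGA the cAMP response element TGACGTCA, in UHRF1 an E2F site (TTTCCCGC or TTTGGCGC, either strand) and in PLK1 the CCAAT box and the cell cycle homology region TTTGAA.
INS, chr11:2161210-2161459, minus strand: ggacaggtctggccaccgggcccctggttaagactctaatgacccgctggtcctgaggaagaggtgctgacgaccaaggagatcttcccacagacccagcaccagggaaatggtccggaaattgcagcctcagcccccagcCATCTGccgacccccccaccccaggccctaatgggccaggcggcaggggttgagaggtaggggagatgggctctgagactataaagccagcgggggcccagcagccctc
GCG, chr2:162152248-162152497, minus strand: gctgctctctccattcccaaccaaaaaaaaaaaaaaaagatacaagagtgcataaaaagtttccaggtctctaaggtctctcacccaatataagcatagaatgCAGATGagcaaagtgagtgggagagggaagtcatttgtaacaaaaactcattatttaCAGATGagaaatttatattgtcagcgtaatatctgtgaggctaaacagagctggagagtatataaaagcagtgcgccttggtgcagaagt
CHGA, chr14:92922900-92923149, plus strand: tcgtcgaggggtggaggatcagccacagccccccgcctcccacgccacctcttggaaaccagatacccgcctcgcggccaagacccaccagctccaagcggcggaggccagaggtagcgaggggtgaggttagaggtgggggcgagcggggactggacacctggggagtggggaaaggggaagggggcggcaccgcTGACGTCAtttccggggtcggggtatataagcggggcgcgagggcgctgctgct
UHRF1, chr19:4909251-4909500, plus strand: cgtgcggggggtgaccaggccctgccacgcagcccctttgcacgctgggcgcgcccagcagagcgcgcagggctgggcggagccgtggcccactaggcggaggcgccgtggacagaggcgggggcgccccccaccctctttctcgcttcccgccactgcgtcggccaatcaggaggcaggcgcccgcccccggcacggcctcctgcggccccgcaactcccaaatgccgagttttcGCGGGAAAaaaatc
PLK1, chr16:23678639-23678888, plus strand: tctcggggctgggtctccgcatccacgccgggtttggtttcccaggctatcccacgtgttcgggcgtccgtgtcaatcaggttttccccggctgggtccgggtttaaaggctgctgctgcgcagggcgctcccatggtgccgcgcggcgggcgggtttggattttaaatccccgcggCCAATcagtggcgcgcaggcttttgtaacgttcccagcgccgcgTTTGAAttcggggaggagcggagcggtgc

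The first base of the match lay at -109 in INS, at -147 and -90 in GCG, at -54 in CHGA, at -14 in UHRF1, and at -73 (CCAAT) and -29 (TTTGAA) in PLK1, counted back from the base before the start. RefSeq gave UHRF1 other start sites, whose windows held no E2F match. Over the 27305 genes with a promoter window, searched on both strands and counting a gene once over all its windows, CAGATG occurred in 14.6%, TGACGTCA in 2.03%, an E2F site in 2.36%, TTTGAA in 16.1% and CCAAT in 37.0%. The homeodomain core TAATTA was also searched for in INS and GCG and gave no match. All such matches describe letters and are not evidence of binding.

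A gene was called higher or lower in SC-β when log2(TPM + 1) differed by 2 or more (4-fold on that scale) and the higher library had at least 10 TPM. By this rule 629 genes were higher, 3.33% of the 18894 described, and 732 were lower, 3.87%. Of these, 586 and 666 were protein-coding. The calls upward were larger: 188 genes were higher by 16-fold or more and 59 were lower by as much, and at 64-fold the counts were 42 and 2. TPM is a share, and GCG alone took 7.89% of all listed TPM in SC-β, TTR 2.63%, INS 2.20% and CHGA 1.72%, against 2.23% for the 4 highest genes of PP2 together. The median difference over all described genes was −0.37 on the log2 scale, with quartiles at −0.92 and 0.32, and each gene group below is read beside that median. When both libraries were centred on their medians, 777 genes were higher and 433 lower, so that 64.2% of the calls were upward against 46.2% in the values as deposited. In bulk samples, a change in the number of cells of a type cannot be told apart from a change in RNA per cell.

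**Figure D1:**
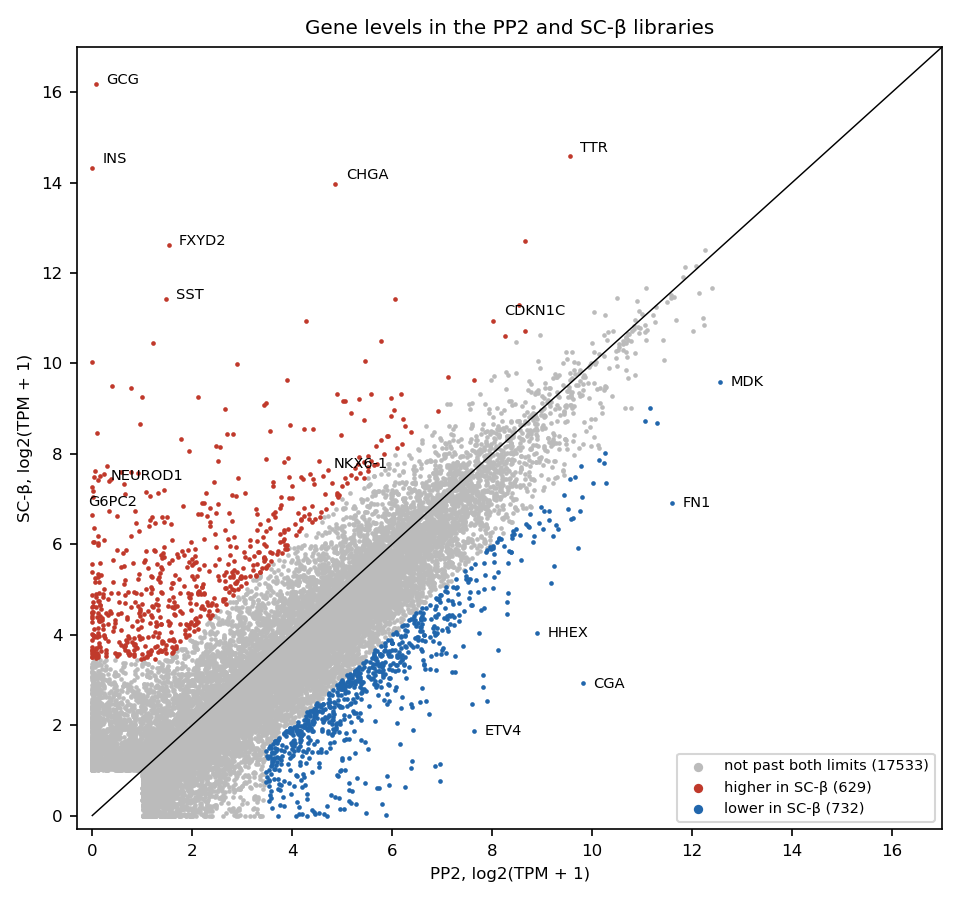
Level of each of the 18894 described genes in PP2 (x axis) and SC-β (y axis), both as log2(TPM + 1); red points were called higher in SC-β (629), blue points lower (732), and the line marks equal levels. GCG and INS lie along the left edge at the top, at 74281 and 20658 TPM, while the lower calls are many and closer to the line.

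Hormone genes gave the largest differences of all. Among 12 peptide hormones of islet and gut, 10 were described, 6 were called higher and 1 lower, and their median log2 difference was 4.62. The filter on low values admits a gene near 0 in PP2 only through SC-β, and over all 12 the median was 3.86. SST (somatostatin) was at 1.77 TPM in PP2 and 2757 TPM in SC-β. GAST (gastrin, a hormone of the fetal pancreas and the stomach) was at 0.318 and 720 TPM. GHRL (ghrelin) was at 0.56 and 45.1 TPM, and PYY (peptide YY) at 1.16 and 43.6 TPM. The SC-β library thus held transcripts of α, β and δ hormones together, and glucagon exceeded insulin by 3.60 times in TPM. IAPP, the amyloid peptide released with insulin, was at 9.62 TPM in SC-β and PPY, pancreatic polypeptide, at 6.96 TPM, both under the limit of 10 TPM. UCN3, a marker of mature β cells in mice, was at 13.4 TPM in PP2 and 3.34 TPM in SC-β. NTS (neurotensin, a gut peptide) was the hormone called lower, at 193 and 4.57 TPM. INS shares its locus with the read-through gene INS-IGF2, which was listed at 1440 TPM in PP2 and 2801 TPM in SC-β, so the split of reads between them is uncertain. The hormone list as a whole made up 0.0222% of the listed TPM in PP2 and 10.5% in SC-β.

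The machinery that packs and cuts hormones moved with them. Of 13 granins and prohormone processing genes, 10 were called higher (76.9%, against 3.33% of all genes) and none lower, with a median of 4.05. PCSK2, the convertase that makes glucagon and helps to make insulin, was at 0.0179 TPM in PP2 and 178 TPM in SC-β. PCSK1, the convertase that starts proinsulin cleavage, reached only 11.1 TPM. The granule proteins SCG5, CHGB and SCG2 stood at 1017, 505 and 161 TPM in SC-β against 6.47, 5.31 and 0.548 TPM in PP2. PCSK1N, an inhibitor of PCSK1, and CPE, the carboxypeptidase that trims the cut peptides, were already at 402 and 307 TPM in PP2 and reached 6656 and 1567 TPM. Members outside this pattern were FURIN (231 and 110 TPM), PAM, the amidating enzyme (62.8 and 15.5 TPM), and PCSK6 (6.72 and 0.337 TPM), none of which was called. Among the 11 genes of this list with a promoter window, 3 held TGACGTCA and none held CAGATG. Among described genes with a window, TGACGTCA stood in 3.37%.

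Of 28 endocrine transcription factors, 25 were described, 14 were called higher and 2 lower, and the median was 3.28. Over all 28, with no filter on low values, the median was 2.37. FEV (a factor of serotonin-making and endocrine cells), NEUROD1 and NKX2-2 were each under 1 TPM in PP2 and stood at 211, 182 and 138 TPM in SC-β. PAX6 and ISL1, needed for hormone transcription, reached 46.5 and 60.1 TPM. INSM1 was already at 31.4 TPM in PP2 and reached 575 TPM. MAFA, the factor of the mature β cell, was at 1.12 and 0.864 TPM. PAX4, a factor that favours β over α fate, was listed at 0 in PP2 and at 8.68 TPM in SC-β. NEUROG3, the starter of the programme, was already at 4.28 TPM in PP2 and stood at 25.2 TPM in SC-β, a ratio of 5.87, so its transcript had not been lost from the SC-β culture. The 2 factors called lower were HHEX (476 and 15.5 TPM), which patterns foregut endoderm and later marks δ cells, and SIX2 (95.6 and 11.5 TPM), which marks adult β cells.

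**Figure D2:**
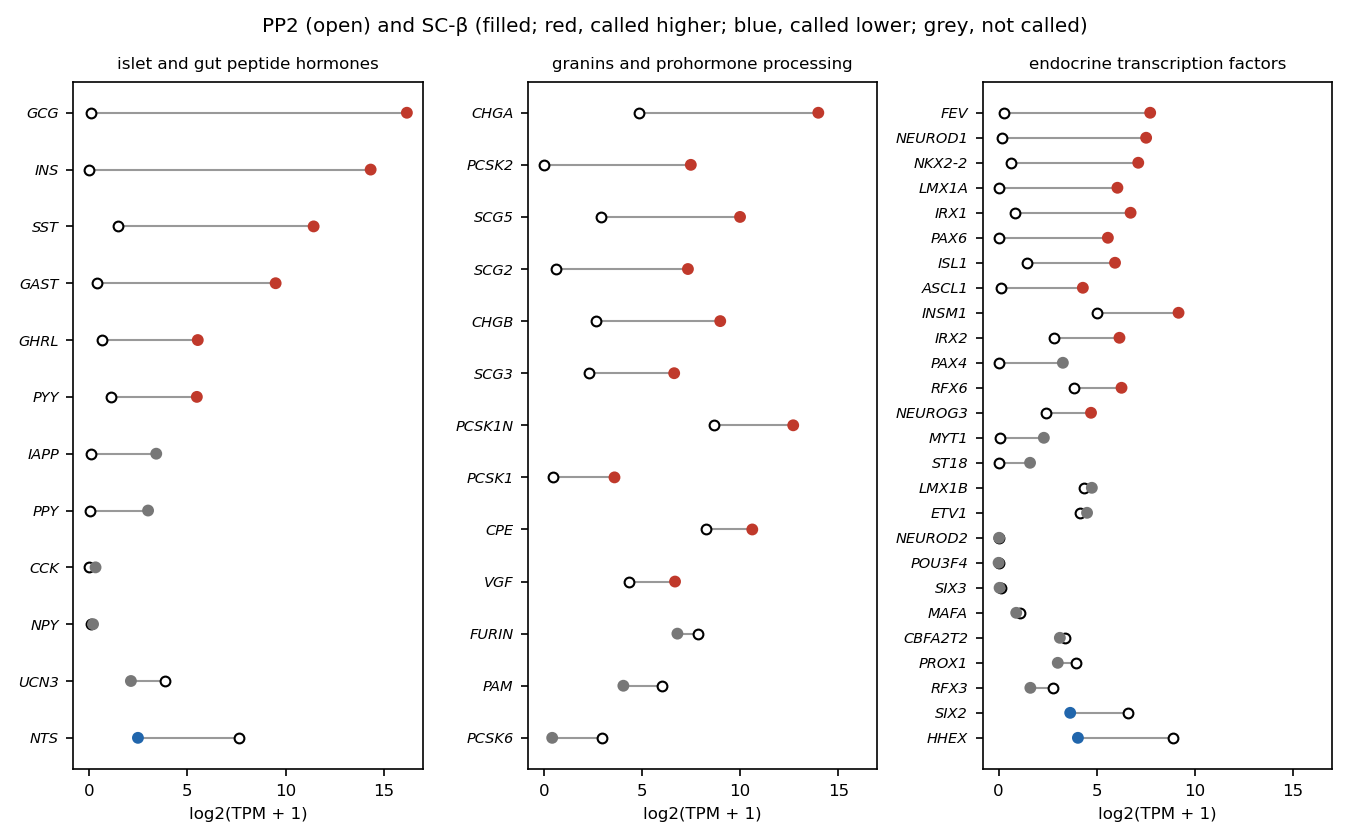
Levels of the hormones, the granins and processing enzymes, and the endocrine transcription factors in PP2 (open circles) and SC-β (filled circles) on a log2(TPM + 1) axis, ordered by difference, without some members that are not reported here; red marks a gene called higher, blue lower, grey not called. The lines to GCG and INS are the longest, and NTS, SIX2 and HHEX are the 3 genes in blue.

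The progenitor factors did not move as a block. Of 18, 2 were called higher and 5 lower, with a median of −1.32. The lower count falls to 1 when the libraries are centred on their medians. NKX6-1, which progenitors and β cells share, was at 23.5 TPM in PP2 and 181 TPM in SC-β, a ratio of 7.71. MNX1, also kept in β cells, was at 37.2 and 206 TPM. PDX1, the founding factor of the pancreas, was instead at 251 and 58.5 TPM, a log2 difference of −2.08 that lies just past the limit. PTF1A, which marks early multipotent and later acinar cells, was at 21.05 and 61.0 TPM. SOX9, a factor of the progenitor and the duct, was at 107 and 32.5 TPM and was not called. NR5A2, ONECUT1 and ONECUT2 were also called lower, at 1.33, 1.504 and 3.38 TPM in SC-β. FOXA2, shared by all these stages, was at 201 and 149.9 TPM.

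Genes of glucose sensing and insulin release followed the hormones: of 14, 9 were called higher and 1 lower, with a median of 4.00. The K-ATP channel subunits ABCC8 and KCNJ11, which link ATP to membrane voltage, went from a listed 0 and 3.85 TPM in PP2 to 99.3 and 140.1 TPM in SC-β. G6PC2, the islet glucose 6-phosphatase, was listed at 0 and at 153 TPM, and SLC30A8, the zinc transporter of the insulin granule, at 0.706 and 72.1 TPM. ABCC8, G6PC2 and SLC30A8 were thus near the bottom of the scale in PP2. FXYD2, a subunit regulator of the sodium pump, gave the largest difference of the list, 1.89 and 6340 TPM, though it overlaps the read-through gene FXYD6-FXYD2 (65.5 and 2734 TPM). The glucose transporters differed from the rest. SLC2A1 was at 139.7 and 175 TPM, SLC2A2 at 0.368 and 1.20 TPM, and SLC2A3 was called lower at 89.7 and 14.4 TPM.

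Of 24 ion channel genes, 22 were described, 10 were called higher and none lower, with a median of 2.36. With no filter on low values the median over all 24 was 1.94. KCNK16 (an islet leak potassium channel) was at 0.0371 and 196 TPM and KCNH6 (a voltage-gated potassium channel) at 0.255 and 105 TPM. The L-type calcium channel CACNA1D, which opens the way to secretion, was at 4.26 TPM in SC-β and was not called, and CACNA1H, a T-type channel, was at 56.8 and 94.8 TPM. In regulated exocytosis, 17 of the 27 described genes (of 30) were called higher and none lower, with a median of 2.85. Without the filter the median over all 30 was 2.27. PTPRN, a granule membrane protein known as an autoantigen of type 1 diabetes, was at 3.32 and 614 TPM. SYP (synaptophysin) was at 2.81 and 268 TPM and SLC18A2, the vesicle monoamine transporter, at 0.083 and 72.0 TPM. The SNARE genes SNAP25 (1.92 and 46.7 TPM) and STX1A (11.3 and 155 TPM) were called higher as well, and VAMP2 (21.1 and 57.5 TPM) was not. Of 16 islet receptors, 14 were described, and the 4 called higher were GPR119 (0.173 and 67.1 TPM), SSTR5, ADRA2A and SSTR3. GLP1R, the receptor for the incretin GLP-1, was at 1.49 and 4.14 TPM and GCGR, the glucagon receptor, at 5.03 and 0.82 TPM.

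Cell cycle genes were lower in SC-β. In DNA replication, 28 of 35 genes were called lower (80.0%, against 3.87% of all genes) and none higher, and all 35 had a negative difference, with a median of −2.33. In mitosis the count was 31 of 34, again with none higher and all 34 negative, and the median was −2.61. Part of each count lies close to the limit: when the libraries were centred on their medians, 15 and 25 were still called lower. UHRF1, which keeps DNA methylation through replication, was at 129 TPM in PP2 and 12.0 TPM in SC-β. RRM2, the ribonucleotide reductase subunit, was at 66.0 and 5.81 TPM, and PLK1, the mitotic kinase, at 108 and 10.5 TPM. The transcripts of these genes were thus low but still measurable in SC-β. MKI67, the usual proliferation marker, was at 20.7 and 1.99 TPM, and PCNA, the replication clamp, stayed at 81.3 TPM in SC-β from 290.3 TPM. Among the inhibitors and G1 cyclins, CDKN1C, an imprinted inhibitor found in endocrine cells, was called higher at 259 and 1956 TPM. CDKN1A (36.7 and 48.7 TPM) and CDKN1B (62.1 and 50.8 TPM) were not called, and E2F1 was called lower at 59.3 and 11.3 TPM, a call lost after centring, quantile normalization or trimmed mean scaling. The letters before the start sites differed between the replication and mitosis groups. An E2F site stood in 13 of 31 replication genes with a window (41.9%) and 2 of 29 mitosis genes, whereas TTTGAA stood in 16 of 29 mitosis genes (55.2%) and 1 of 31 replication genes. CCAAT stood in 79.3% of the mitosis genes and 61.3% of the replication genes.

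Growth factor signalling showed its lower genes among the feedback targets. Of 23 FGF and EGF receptors and feedback genes, 22 were described, 10 were called lower and none higher, and 7 were still lower after centring. The median was −1.72, and −1.60 over all 23 with no filter on low values. ETV4, an ETS factor that FGF signalling switches on, was at 199 and 2.68 TPM, a ratio of 74.1. The inhibitors of the pathway that it also induces were SPRY2 (101 and 4.75 TPM), SPRY4 (32.3 and 1.02 TPM) and DUSP6 (81.8 and 4.50 TPM). The immediate early gene EGR1 was at 37.0 and 1.60 TPM. The receptors themselves differed less. FGFR3 was at 124 and 83.4 TPM, FGFR4 at 174 and 113 TPM and EGFR at 10.9 and 7.83 TPM, and ERBB2 (138 and 15.8 TPM) was the receptor called lower. The genes called lower were thus, apart from ERBB2, feedback and target genes.

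In the Notch pathway 6 of 24 genes were called lower and 1 higher, with a median of −0.67. The lower genes covered a ligand, receptors, a modifier and targets. JAG1 (a ligand) was at 135 and 11.0 TPM. NOTCH2 was at 42.2 and 5.95 TPM and NOTCH3 at 204 and 36.2 TPM. LFNG, which modifies the receptors, was at 76.5 and 7.25 TPM, and the target genes HEY1 and HES1 were at 146 and 7.97 TPM and at 184 and 27.1 TPM. Some other members of the pathway differed less. HES4 (355 and 259 TPM), HES6 (157 and 163 TPM) and DLL4 (36.9 and 23.5 TPM) were not called, and NOTCH1 was at 59.4 and 26.7 TPM. The non-canonical ligand DNER was called higher at 0.0784 and 21.4 TPM, a log2 difference of 4.38 and the largest of the list. After centring, 6 were lower and 2 higher.

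Among 27 genes of the BMP and TGFβ response, 7 were called lower and 2 higher, with a median of −0.98, and centring left 4 lower. The BMP targets ID1 (870 and 106 TPM) and ID3 (1118 and 232 TPM) were lower, as were BAMBI (319.7 and 29.1 TPM), a decoy receptor, and SMAD7 (61.0 and 9.01 TPM), an inhibitor induced by the pathway. ACVR1C, an activin and nodal receptor of islet cells, was instead at 0.0355 and 37.4 TPM, and INHBB, an activin subunit, at 0.0676 and 14.6 TPM. In the Hippo-YAP list 8 of 21 genes were called lower and none higher, with a median of −1.41. ANKRD1 (116 and 8.31 TPM) and CCN2 (52.7 and 10.8 TPM), targets of YAP, were among them, with the partner factors TEAD2 (323 and 56.5 TPM) and TEAD4 (34.8 and 4.57 TPM). YAP1 was at 138 and 35.2 TPM and was not called, and centring left 3 of the 8 calls.

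**Figure D3:**
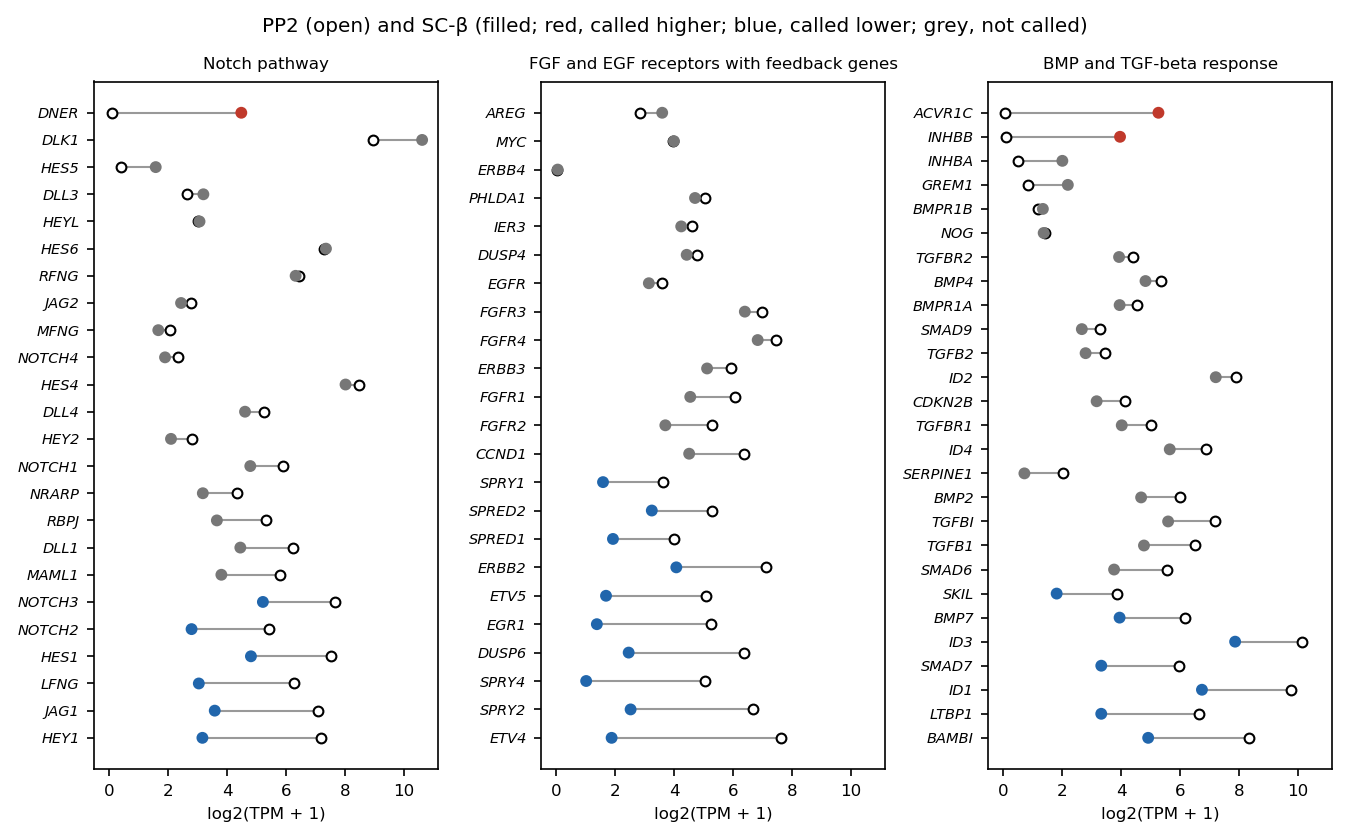
Levels of the genes of the Notch, FGF/EGF and BMP/TGFβ lists in PP2 (open circles) and SC-β (filled circles) on a log2(TPM + 1) axis, ordered by difference, with red for called higher, blue for called lower and grey for not called. The blue genes include feedback targets and inhibitors such as ETV4, HEY1 and BAMBI and the receptors NOTCH2, NOTCH3 and ERBB2, while FGFR3, FGFR4, EGFR and NOTCH1 are grey.

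The list of retinoic acid and thyroid hormone genes was mixed. Of 21, 17 were described, 4 were called higher and 1 lower, and 6 of the 17 lay below 0. The median was 0.87, and 0.23 over all 21 with no filter on low values. The thyroid hormone targets DIO1 (a deiodinase, 1.63 and 42.9 TPM) and HR (the corepressor hairless, 0.197 and 14.2 TPM) were called, as were DIO3 (14.4 and 129 TPM), which inactivates the hormone, and ALDH1A1 (64.8 and 499.7 TPM), which makes retinoic acid. CRABP2, a carrier and target of retinoic acid, was called lower at 263 and 48.1 TPM. Of 17 described zinc transporters and metallothioneins (of 20), SLC30A8 was the 1 called. MT1F was at 21.7 and 49.8 TPM, MT1X at 13.3 and 22.1 TPM and MT2A at 45.0 and 30.02 TPM.

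Genes of protein folding in the endoplasmic reticulum, where proinsulin folds, were called higher about as often as all genes. Of 28, 1 was called higher (3.57%, beside 3.33% of all genes) and none lower (3.87% of all genes). The gene called was ERO1B, the oxidase of secretory islet cells (0.916 and 78.0 TPM). After centring, quantile normalization or trimmed mean scaling, 3 were higher and none lower. The list median was −0.35, beside −0.37 for all genes. HSPA5, the main chaperone, was at 428 and 159.8 TPM, PDIA4 at 438 and 111 TPM and XBP1, a stress factor, at 154 TPM in both. Of 16 genes that adult β cells keep silent, CXCL12 was called higher (67.1 and 279 TPM) and HK2 (25.5 and 4.36 TPM) and REST (15.3 and 1.67 TPM) lower, with 1 lower call left after centring. HK2 is the hexokinase of high glucose affinity and REST a repressor of neuronal and endocrine genes. LDHA was at 74.4 and 26.7 TPM and SLC16A1 at 108 and 28.4 TPM, neither being called. In the matrix list, 6 of 33 described genes (of 34) were called lower and none higher. FN1 (fibronectin) was at 3115 and 119.96 TPM, a ratio of 26.0, and the basement membrane collagen COL4A6 at 96.7 and 9.81 TPM. The early-development genes LIN28A (276 and 11.7 TPM), HMGA2 (219 and 22.3 TPM) and IGF2BP1 (61.5 and 7.28 TPM) were lower, 5 of the 11 in their list being so called, while IGF2 was at 3178 and 2829 TPM. The pluripotency factors POU5F1 and NANOG were under 1 TPM in both libraries, and LIN28A, DNMT3B and DPPA4 were the 3 called lower of 5 described in that list of 9.

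**Figure D4:**
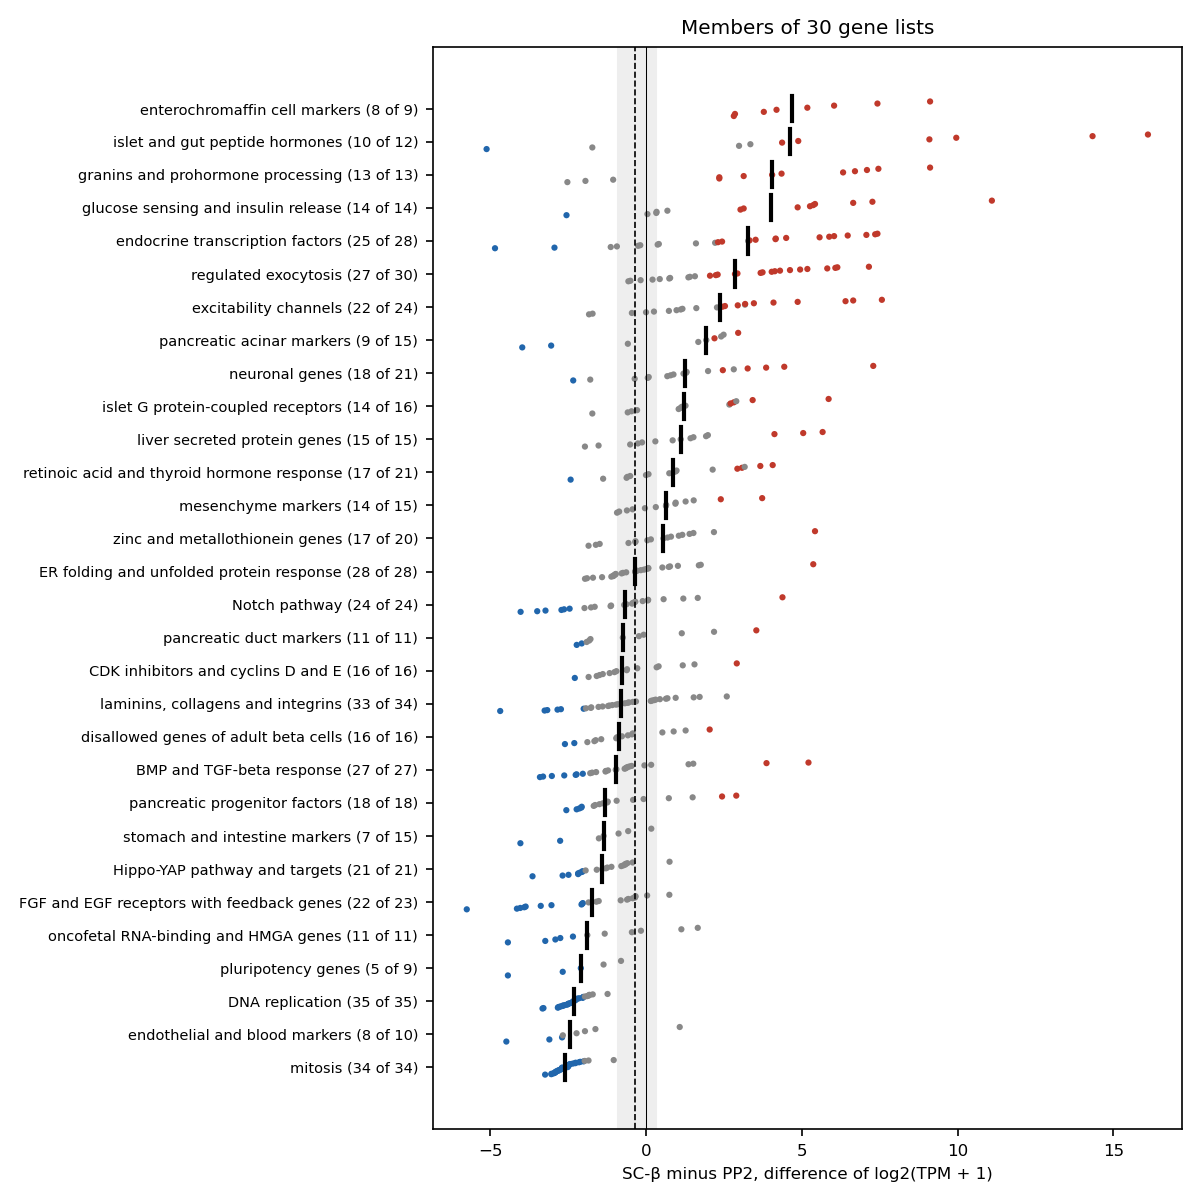
Differences of log2(TPM + 1), SC-β minus PP2, for the described members of the 30 gene lists (described of all members in brackets), ordered by list median (black bars), with red for called higher and blue for called lower; the dashed line and grey band give the median, −0.37, and quartiles of all described genes. The 5 lists with the highest medians are endocrine, and mitosis, endothelial and DNA replication genes have the lowest.

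Markers of other cell types were also measured. All 8 described markers of enterochromaffin cells, the serotonin-making cells of the gut (of 9), were called higher. Their median was 4.68, and 4.19 over all 9 with no filter on low values. They include CHGA, FEV and LMX1A, which other endocrine cells use or which stand in other lists here, but also TPH1, the enzyme that makes serotonin (0.0772 and 37.9 TPM), DDC (11.2 and 166 TPM) and SLC18A1 (2.89 and 27.1 TPM). TRPA1, a receptor of these cells, was under 1 TPM in both libraries. The neuronal list had 5 of 18 described genes (of 21) called higher, led by STMN2 (0.0893 and 169.8 TPM), and TUBB3 called lower (689 and 135 TPM), a call lost after centring or trimmed mean scaling. ELAVL4, a neuronal RNA-binding protein, was listed at 0 in SC-β.

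Transcripts of non-endocrine cells were present in both libraries. Mesenchyme markers summed to 2141 TPM in PP2 and 3720 TPM in SC-β over 15 genes, with COL3A1 at 779 and 1210.3 TPM and COL1A1 at 310.2 and 896 TPM. ACTA2 (35.2 and 478 TPM) and DCN (17.9 and 98.4 TPM) were called higher, and PDGFRA was at 20.2 and 10.1 TPM. Endothelial and blood markers summed to 96.7 TPM in PP2 and 16.5 TPM in SC-β over 10 genes. CDH5, the cadherin of vessels, was at 22.3 and 0.0348 TPM, KDR at 35.4 and 3.22 TPM and PECAM1 at 3.74 and 0.00624 TPM, while PTPRC, the marker of white blood cells, was at 0 and 0.00605 TPM. CDH5 and PECAM1 were thus near 0 in SC-β and measurable in PP2, KDR was lower but still measurable, CLDN5, also of vessels, was at 4.65 and 10.9 TPM, and the part of these markers in the results above was not tested. Of 11 duct markers, 1 was called higher and 2 lower (0 lower after centring or trimmed mean scaling), and KRT19, at 1105 and 293 TPM, was not called. Of 9 described acinar markers (of 15), 2 were called higher (4 after trimmed mean scaling) and 2 lower. CELA3A was at 0.793 and 12.9 TPM, and PRSS1 and CPB1 were lower, at 6.38 and 0.98 TPM in SC-β, while PNLIP was listed at 0 in both. Intestinal CDX2 (55.5 and 7.33 TPM) and CDH17 (44.5 and 1.77 TPM) were called lower. Of 15 liver secreted protein genes, 3 were called higher (5 after quantile normalization or trimmed mean scaling) and none lower. The 3 were TTR, the carrier of thyroxine that α and β cells also make (749 and 24727 TPM), ALB (10.1 and 560.1 TPM) and APOC3 (20.4 and 371 TPM), while AFP was at 1646 and 1502 TPM.

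The genes with the largest differences, 15 protein-coding genes in each direction, included others outside the endocrine lists. CRH, the corticotropin-releasing hormone of the hypothalamus, was listed at 0 in PP2 and at 1043 TPM in SC-β. CRYBA2, a crystallin, was at 1.33 and 1401 TPM, BTBD17 at 0.709 and 699 TPM, GC (the vitamin D binding protein, made by liver and α cells) at 0.0625 and 354 TPM, C2CD4B at 0.99 and 608 TPM and HEPACAM2 at 0.927 and 401 TPM. FXYD2, KCNK16, PCSK2 and FEV, with GCG, INS, SST, CHGA and GAST, completed the upper set. In the other direction CGA, the α subunit of the glycoprotein hormones, had the largest difference, at 901 and 6.58 TPM. GPR50 (a melatonin receptor relative) was at 124 and 0.689 TPM, HAPLN3 and VCAN (both of the hyaluronan matrix) at 115 and 1.12 TPM and at 238 and 4.79 TPM, and SLCO2A1 (a prostaglandin transporter) at 43.5 and 0.0325 TPM. SNCAIP, LYPD6B, FOLR1, MMP1, CDH6 and ARG1, with ETV4, NTS and HHEX, were also in this set, and their SC-β levels ran from 0.21 to 15.5 TPM.

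Genes that do not code for protein were also ranked. MIR7-3HG, the host transcript of an islet microRNA, was at 0.325 and 49.5 TPM, and SSTR5-AS1 at 0.0154 and 21.5 TPM beside its antisense partner SSTR5. The use of strand is not given in the sources used here, so reads of such pairs cannot be told apart. MIR147B lies within C15orf48, and MTATP8P1 and HSPA8P8 are pseudogenes that share sequence with other genes, so their values are uncertain. The lower set held SNORD116-1, TRBC2, LHFPL3-AS2, ENSG00000276900 and ENSG00000269993, at 54.2 to 123 TPM in PP2. Near the limit, PXDC1 (10.1 and 43.4 TPM) and RPS13 (197 and 793 TPM) were the protein-coding genes just inside the upper call, and GPX7 (31.1 and 127 TPM) and VEGFA (136 and 548 TPM) were just outside. PKP4 (31.1 and 7.03 TPM) and ALDH3A2 (88.2 and 21.3 TPM) lay just inside the lower call, and TANC1 (17.6 and 3.65 TPM) and ZBTB16 (21.9 and 4.72 TPM) just outside.

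The earlier stages of batch 1, hPSC and DE (definitive endoderm) with 1 library each, place these genes in time. Of the 629 genes called higher, SC-β had the highest level of the 4 stages in 594 (94.4%). The calling rule puts SC-β above PP2, so only hPSC (highest in 25) or DE (10) could exceed it. For this and the other stage counts here, the share over all described genes was not computed, except for presence in PP2. In 134 (21.3%) the level was under 1 TPM in hPSC, DE and PP2. At 1 TPM or more in PP2 were 431 (68.5%), a smaller share than over all described genes (17240 of 18894). The lower genes were of more than 1 kind. By the same rule SC-β could not be the highest stage for them. PP2 was the highest stage for 541 of 732 (73.9%), hPSC for 137 and DE for 54. In PP2, 185 (25.3%) stood 4-fold or more above both earlier stages. PDX1 and HHEX peaked at PP2, whereas LIN28A was at 460 TPM in hPSC, 625 TPM in DE and 276 TPM in PP2 before 11.7 TPM in SC-β. MKI67 was at 12.0, 19.0 and 20.7 TPM through the first 3 stages. CDH5 was at 0.0571, 0.235 and 22.3 TPM, so its signal belonged to the PP2 library alone.

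The study also made β-like cells from expandable progenitors (ePPs, cultured with I-BET151, an inhibitor of BET bromodomain proteins), giving 4 ePP libraries and 2 ePP-β libraries of batch 2. The ePP libraries were replicates 1 and 2 at passage 9 and replicates 1 and 2 at passage 21, and ePP means and ranges cover both passages. The ePP and ePP-β groups share no library with PP2 and SC-β, but batch and path cannot be told apart. Of the 629 genes called higher here, 335 (53.3%) were also 4-fold or more higher in ePP-β than in ePP by the same limits, and these were 35.7% of the 938 genes past the limits there. Of the 732 lower, 83 (11.3%) were shared, 46.6% of 178. Past the limits the opposite way were 1 of the higher and 14 of the lower genes. The 938 and 178 were counted over all 60624 listed genes, and their share of the 18894 described was not computed. In sign, 94.6% of the higher genes and 78.0% of the lower genes agreed, where 49.7% and 49.9% of all described genes had that sign in ePP-β. INS was at 10916 and 17374 TPM in the ePP-β libraries and GCG at 14107 and 13360 TPM, a GCG to INS ratio of 1.29 and 0.769. NKX6-1 was at 176 to 213 TPM in the ePPs and at 143 and 138 TPM in ePP-β, so its level in ePPs was already near that of SC-β (181 TPM). COL1A1 was at 7.69 to 15.7 TPM in ePPs and at 8.63 and 5.90 TPM in ePP-β, below both PP2 and SC-β. PTF1A was under 1 TPM in all 6 libraries. TPH1 was at 140 and 245 TPM in ePP-β, above the 37.9 TPM of SC-β, and NEUROG3 at 5.65 and 5.51 TPM, below its 25.2 TPM.

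**Figure D5:**
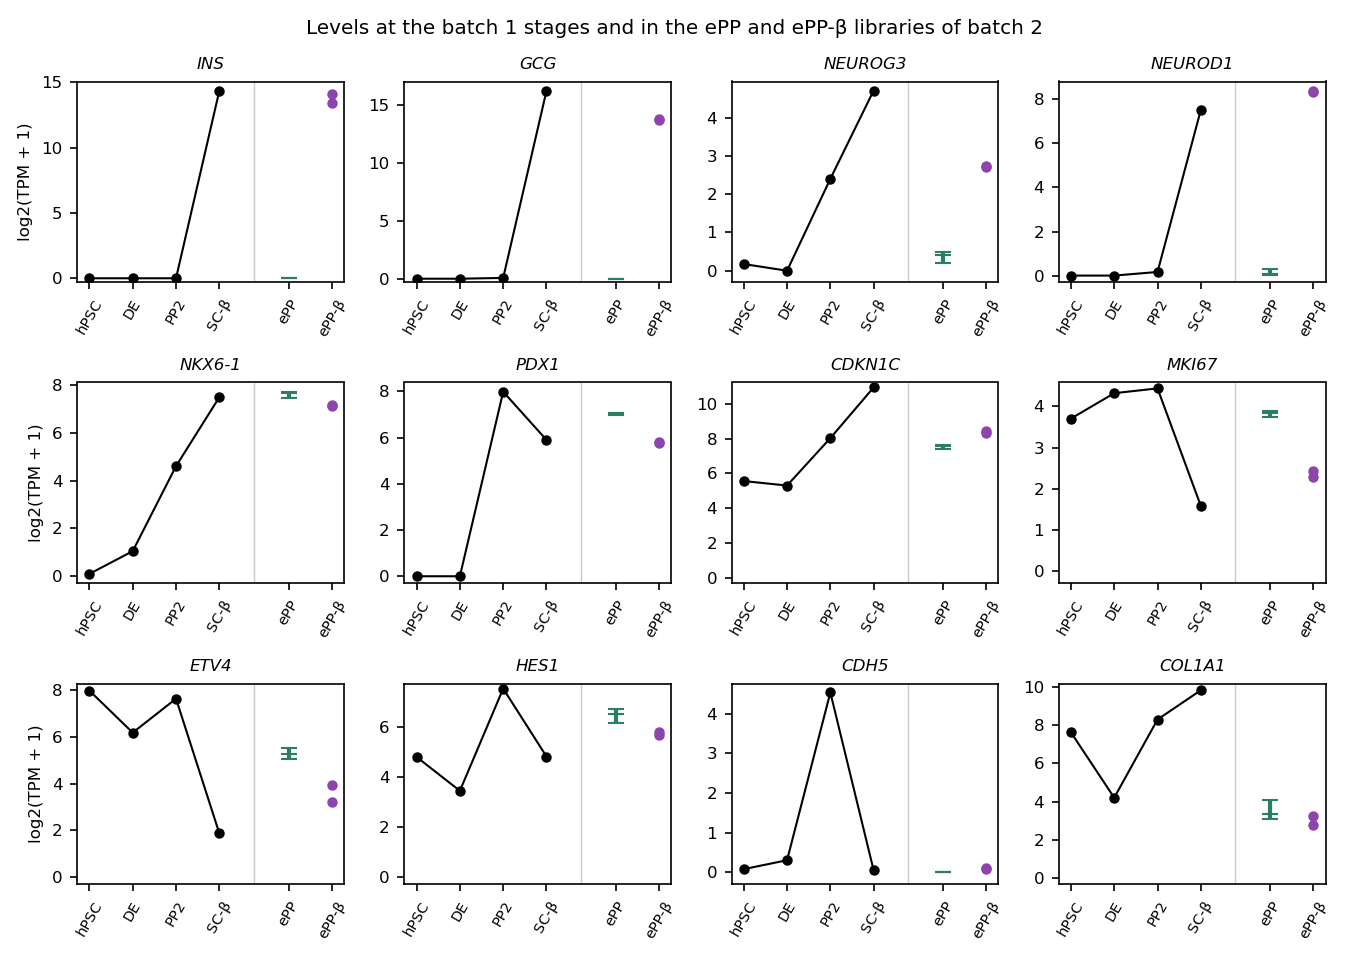
Levels as log2(TPM + 1) of 12 genes at the batch 1 stages (black points and lines, 1 library each), in the 4 ePP libraries (green, lowest, median and highest) and in the 2 ePP-β libraries (purple points) of batch 2. The ePP libraries cover passages 9 and 21. INS, GCG and NEUROD1 appear at the last step of both paths, NKX6-1 is high in ePP already, and CDH5 stands out in PP2 only.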

How the data were processed

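The authors sequenced paired ends of NEBNext Ultra libraries on an Illumina HiSeq instrument, aligned them to GRCh38 with HISAT2 2.1.0 and assembled transcripts with StringTie. The annotation release, the use of strand and the harvest days of these libraries are not given in the sources used here. The deposited values are TPM per Ensembl gene identifier, 60624 per library, with no further scaling between libraries. TPM keeps no read number, so the depth is unknown and no counting interval is given. The listed TPM summed to 946540 in PP2 and 941092 in SC-β, and all 37 mitochondrial genes were listed at 0 in both. Files of the DMSO and I-BET151 libraries were not used.

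Symbols, types and positions came from GENCODE 44, which matched 60370 identifiers. Values were taken as log2(TPM + 1), genes with 1 TPM or more in either library were described, and a gene was called at a difference of 2 or more with 10 TPM or more in the higher library. With 1 library per group nothing was tested. Some genes that are counted are not reported here by name. The text otherwise names the 15 protein-coding and 5 other called genes with the largest difference in each direction, members of 30 gene lists (565 genes), and the genes nearest to the limit. The members and lists were chosen with earlier results of these data known, and 4 more lists after the values were seen. Promoter windows came from RefSeq. Other pseudocounts, filters, limits, scalings and gene sets were tried. The calling step was tested on simulated data. Python 3.11.15, pandas 2.3.3, numpy 2.4.6 and matplotlib 3.10.9 were used.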

Additional observations from a re-analysis of the deposited data

Results flagged for a closer look

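Among the 565 list members, 11 described here differed by 2-fold or more one way between PP2 and SC-β and by 2-fold or more the opposite way between the ePP and ePP-β means, on the log2(TPM + 1) scale and with 10 TPM or more in the highest library of each path, and had both ePP-β libraries outside the range of the 4 ePP libraries. The ePP mean and range cover passages 9 and 21. Smaller opposite differences are not listed. That the paths differ was not tested, since PP2 and SC-β had 1 library each, and batch and path cannot be told apart. The 10 genes lower in SC-β and higher in ePP-β included genes of gut and liver type: APOB (log2 difference −1.53 from PP2 to SC-β), CDH17 (−4.04) and FABP1 (−1.52). FABP1, a fatty acid carrier of enterocytes and hepatocytes, was at 79.2 and 27.0 TPM in PP2 and SC-β, at 71.1 to 98.7 TPM in ePP, and at 343 and 456 TPM in ePP-β. CDH17, the cadherin of intestinal epithelium, was at 44.5 and 1.77 TPM, at 13.2 to 19.2 TPM in ePP, and at 65.5 and 71.5 TPM in ePP-β.

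The glucose transporter SLC2A3 (−2.56) and LDHA (−1.44) were among them. LDHA, lactate dehydrogenase, was at 74.4 and 26.7 TPM in PP2 and SC-β, at 110.5 to 145 TPM in ePP, and at 389 and 261 TPM in ePP-β. The others were the retinoic acid carrier CRABP2 (−2.43), the neuronal gene DCX (−1.80), the amidating enzyme PAM (−1.95), the transcription factor SOX2 (−1.37) and the TGFβ-induced matrix gene TGFBI (−1.61). POSTN, a matrix gene of mesenchyme, went the other way, with a difference of 1.27 from PP2 to SC-β (37.5 and 91.7 TPM). It was at 13.3 to 23.1 TPM in ePP and at 3.36 and 3.46 TPM in ePP-β.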

How the results depend on the processing

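With 1 library each of PP2 and SC-β, no replicate could be left out. No paired analysis was possible because the comparison has 1 library per group and its results come from no test. The counts of 629 higher and 732 lower genes moved with the limits: a level of 50 TPM in place of 10 TPM gave 258 and 321, a difference of 2-fold gave 1232 and 2942, and 8-fold gave 362 and 169. They also moved with the scaling, the lower count being 433 after centring on the median, 470 after quantile normalization and 475 after trimmed mean scaling (777, 782 and 847 higher). Without the hormone genes, rescaled, the counts were 734 and 613. Pseudocounts of 0.1 and 0.01, other filters on low values, a limit of 1 TPM, protein-coding genes alone and removal of ribosomal protein genes kept each count within 1.5 times. Single genes were followed only for the 15 protein-coding and 5 other called genes with the largest difference in each direction. None of these changed direction. At 50 TPM, 5 of them (MIR7-3HG, HSPA8P8, SSTR5-AS1, SLCO2A1 and ARG1) were no longer called. They were called under the other alternatives run for them, which for MIR7-3HG, HSPA8P8 and SSTR5-AS1 leave out the set of protein-coding genes alone. Of the list medians, that of ER folding changed sign, from −0.35 to 0.02 after centring and 0.01 after trimmed mean scaling. Unknown depth limits what can be said of genes at low TPM.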

Other observations

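The 4 gene groups below were listed after the values had been seen, so their counts are descriptions of genes that were noticed. Over all genes, 3.33% were called higher and 3.87% lower. The counts of these 4 groups were not repeated under other scalings. Of 34 interferon response and antigen presentation genes, 32 were described, 11 were called higher in SC-β and none lower, with a median log2 difference of 1.99 beside −0.37 for all genes. IFI6, an interferon-induced protein of mitochondria and the endoplasmic reticulum, was at 18.4 TPM in PP2 and 1961 TPM in SC-β. OAS1 and MX1, antiviral effectors, were at 0.153 and 27.6 TPM and at 0.378 and 18.1 TPM, and the RNA sensor IFIH1 at 1.25 and 32.5 TPM. TAP1, the peptide transporter of antigen presentation, was at 0.36 and 16.97 TPM. HLA-B (202 and 215 TPM) was not called. Both ePP-β libraries lay above all 4 ePP libraries for 32 of the 34 genes. The share of all genes with that order was not computed, and batch and path cannot be told apart.

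Of 33 Wnt receptors, factors and targets, 12 were called lower and none higher, with a median of −1.49. The receptors FZD5 (169.6 and 12.4 TPM) and FZD2 (160.2 and 20.6 TPM), the nuclear factors TCF7L2 (29.6 and 2.59 TPM) and LEF1 (10.1 and 0.672 TPM), and SP5, a target gene (36.9 and 2.64 TPM), were among them. AXIN2, a common readout of the pathway, was at 6.97 and 9.71 TPM. Also not called were NOTUM (1.10 and 6.12 TPM) and NKD1 (0.813 and 3.26 TPM). Of the 33, 8 lay above 0 and 25 below. Of 15 smooth muscle contractile genes, 5 were called higher and none lower, with ACTG2 at 3.60 and 119.9 TPM, DES at 0.895 and 36.8 TPM and MYLK at 1.29 and 20.0 TPM, while CNN1 was at 47.4 and 36.3 TPM. These stand beside the mesenchyme markers above.

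Of 20 liver-type metabolic enzymes, 15 were described, 7 were called higher and 3 lower. ASS1 of the urea cycle was at 4.87 and 283 TPM and KHK, which phosphorylates fructose, at 4.14 and 83.4 TPM. ARG1 (35.0 and 0.21 TPM) and CPS1 (25.7 and 3.17 TPM) were among the genes called lower, so that genes of the urea cycle stood in both directions.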
